A study of Mus musculus with 12 samples.

Results

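The SLC25 genes encode the mitochondrial carriers, the largest family of solute transporters of the mitochondrial inner membrane. They were taken as the protein-coding genes of GENCODE M21 whose symbol is Slc25a followed by a number, with the counts of all transcripts summed per gene. This gave 46 of the 22141 genes in the deposited table, grouped here by known substrate. The 3 UCP-like members and the 8 with no settled substrate form classes of their own. One further gene of that name in the annotation, Slc25a54, was not analysed here. Of the 46 genes, 41 passed the filter on low counts and were tested among 15794 genes. The other 5 were Slc25a2, Slc25a18, Slc25a21, Slc25a41 and Slc25a48, with 25, 53, 1, 4 and 54 counts over all 12 libraries, and were not tested.

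The libraries came from cultured pancreatic islets, the endocrine clusters of the pancreas, of male wild-type mice aged 10 to 12 weeks, kept in lots of about 120 islets. Each of 4 groups had 3 messenger RNA libraries: vehicle alone, C3a in vehicle (called vehicle with C3a), palmitate alone, and both agents (called palmitate with C3a). Palmitate is a saturated long-chain fatty acid, and C3a is the fragment released when complement protein C3 is cleaved. Dose, duration and the make-up of the vehicle are not in the labels. Whether replicate libraries stem from different animals or cultures is not in the labels, so p-values measure only the spread between these libraries, which may be technical. Sequencing batch 1 holds replicate 1 of the 4 groups, and batch 2 holds replicates 2 and 3.

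Mitochondrial carriers exchange or import metabolites, nucleotides, coenzymes and ions across the inner membrane, and each carrier is built from repeats of 1 module. ADP and phosphate enter for ATP synthesis through the ADP/ATP and phosphate carriers, fatty acids enter as acylcarnitines, and reducing equivalents are moved by shuttles that pair carriers with enzymes on both sides of the membrane. In beta cells, which release insulin when glucose raises their ATP, the citrate, aspartate-glutamate and ATP-Mg carriers are studied as links between mitochondrial metabolism, calcium and secretion.

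The 4 libraries of batch 1 had totals of 22216420 to 26110989 counts, and the 8 of batch 2 had 35876350 to 50264695. The islet label was checked against hormone cell markers: the 12 beta cell markers summed to 136500 to 196000 CPM (counts per 1000000 counts) in the 12 libraries and the 7 alpha cell markers to 25280 to 40100 CPM. With palmitate 6 of the 12 beta cell markers fell and none rose (7 and none in the comparison with C3a present), and 5 of 7 endothelial markers fell (3 of 7 with C3a). Of all genes tested, 12% fell and 13.4% rose without C3a, and 13.1% fell and 13.8% rose with it. The summed endothelial markers were at 201 to 283 CPM in vehicle, 184 to 258 in vehicle with C3a, 108 to 206 in palmitate and 118 to 217 in palmitate with C3a. In whole islets, fewer cells of a type and less RNA per cell cannot be told apart, and the part of these shifts in the carrier results was not tested.

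In all, 5 genes had a mean over 100 TPM, which scales counts by transcript length within each library, so that genes can be compared. The phosphate carrier gene Slc25a3 had 299 TPM averaged over the 12 libraries, the ADP/ATP carrier gene Slc25a5 265, the glutathione carrier gene Slc25a39 210, the second ADP/ATP carrier gene Slc25a4 160 and the citrate carrier gene Slc25a1 120. Their ranges over the 3 vehicle libraries did not overlap with those of their neighbours in this order, and together they held 63.2% of the TPM of the family. Below them the oxoglutarate-malate carrier gene Slc25a11 had 54.7 TPM, the NAD carrier gene Slc25a51 48, the peroxisomal coenzyme carrier gene Slc25a17 45.4, the pyrimidine nucleotide carrier gene Slc25a36 44.4 and the aspartate-glutamate carrier gene Slc25a12 40.6. The vehicle ranges of each of these 5 overlapped with that of the next gene in the order. Over the whole family, 24 members had a mean over 10 TPM, 13 lay from 1 to 10 TPM and 9 lay under 1 TPM.

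**Figure D1:**
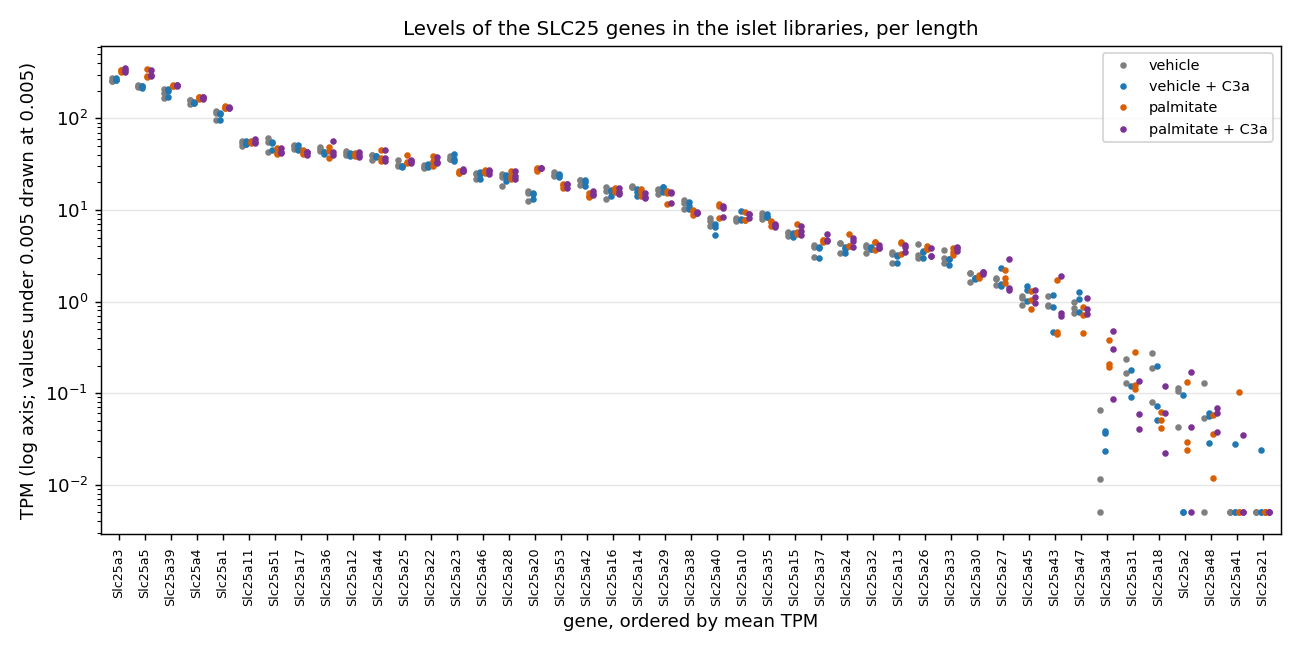
Level of 45 of the 46 SLC25 genes in TPM on a log axis, ordered by mean, with 1 point for each of the 12 libraries and 1 colour for each group. The 5 highest genes stand over 100 TPM on average. Several genes show the palmitate libraries apart from the others, among them Slc25a20, Slc25a3, Slc25a23 and Slc25a34.

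Palmitate was compared with vehicle first without and then with C3a. The libraries of the comparisons are separate, but 1 fit with a shared spread and batch term gave both. Same-numbered libraries also deviated from their group means together, so the comparisons are not independent. Without C3a, 13 of the 41 tested members rose and 8 fell, where 13.4% of all 15794 genes rose and 12% fell. With C3a present 9 rose and 9 fell, where 13.8% of all genes rose and 13.1% fell (edgeR quasi-likelihood test, call at a Benjamini-Hochberg adjusted p under 0.05, 3 libraries per group). The median log2 fold change of the members was 0.13 without C3a and 0.01 with it, beside -0.02 and 0.01 over all genes tested. In both comparisons 9 members rose and 8 fell, and none moved in opposite directions, where 11% of all genes rose in both and 9.66% fell in both. These 17 are 81% of the 21 members called in the first comparison and 94.4% of the 18 called in the second, beside 81.6% and 77% for all called genes. The members that rose include Slc25a34, which passed the filter on low counts only through the palmitate groups, where it is high. Without the batch term 7 members rose and 4 fell in the first comparison and 5 rose in the second, and within batch 2 alone 8 rose and 4 fell in the first. In the first, 5 fell without vehicle replicate 1, without vehicle replicate 3 or with the most abundant transcript of each gene alone, and in the second 5 fell with that transcript alone.

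The 6 palmitate libraries lay all above the 6 libraries without it for 11 members, where this held for 9.02% of all genes, and all below them for 7 members, where it held for 8.33%. The 11 include Slc25a34, which was tested only because it is high in the palmitate groups. Summed over its members, the family held 0.201% to 0.216% of the counts in the libraries without palmitate and 0.218% to 0.236% in those with it. Its summed level was 1481 to 1635 TPM without and 1732 to 1849 TPM with palmitate. Neither range overlapped with its counterpart. The 5 most abundant genes, with 63.2% of the family's TPM, weigh most in the TPM sum. Mean TPM in vehicle and then palmitate was 263 and 332 for Slc25a3, 226 and 305 for Slc25a5 and 188 and 227 for Slc25a39. It was 154 and 168 for Slc25a4 and 111 and 133 for Slc25a1, while 8 members fell in that comparison. Within the TPM sum, the phosphate and ADP/ATP carriers took 40% to 42.8% without palmitate and 44.0% to 46.1% with it. The coenzyme carriers took 9.72% to 10.9% and 7.83% to 8.72%. These shares are parts of 1 total, so a higher share of a class lowers the others.

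**Figure D2:**
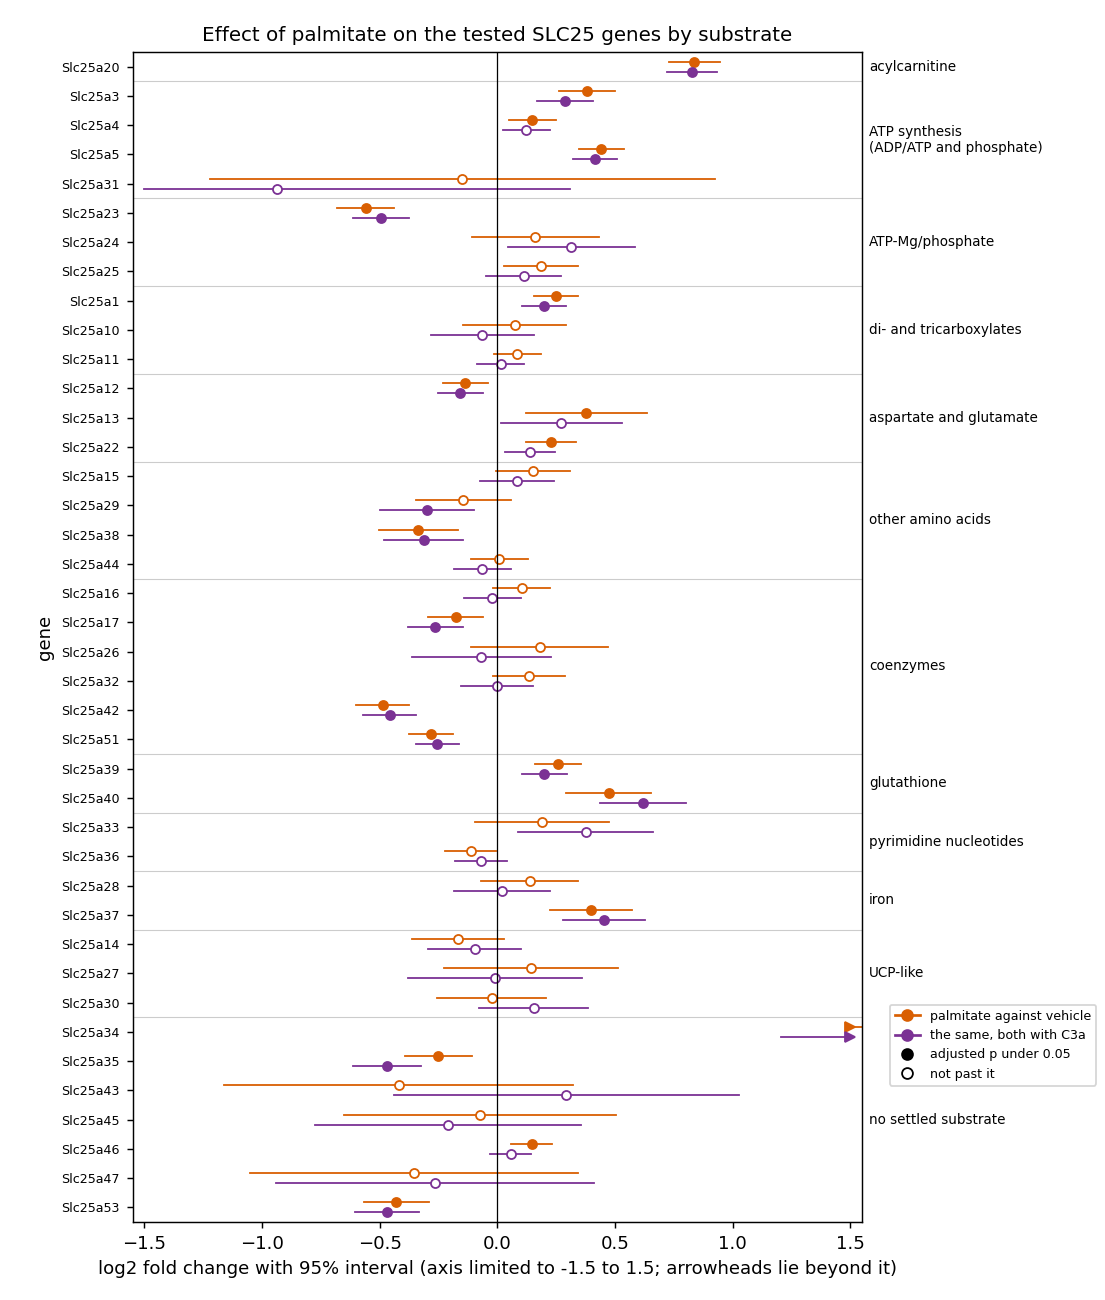
Log2 fold change of 40 of the 41 tested SLC25 genes, each with its 95% interval, for palmitate against vehicle (orange) and for the same with C3a in both groups (purple), grouped by substrate. Filled points passed an adjusted p of 0.05 in edgeR. Slc25a20 stood at 0.84 and 0.83, and the lowest called values were those of Slc25a23, at -0.56 and -0.49. The values of Slc25a34 lie beyond the axis.

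The acylcarnitine carrier gene Slc25a20 (ENSMUSG00000032602.6, GRCm38 chromosome 9, 108662088 to 108684641, plus strand) had the smallest adjusted p of the family in both comparisons. Its protein brings acylcarnitines into the matrix in exchange for carnitine, between the outer enzyme CPT1 and the inner enzyme CPT2. Vehicle libraries held 18.2, 20.4 and 20.8 CPM of it, and those of vehicle with C3a 19.2, 20.8 and 20.8 CPM. In palmitate it had 35.4, 35.4 and 35.7 CPM, and in palmitate with C3a 34.8, 36.5 and 36.6 CPM. All 6 palmitate libraries were thus above all 6 others, with little spread within any group. The log2 fold change was 0.84 ± 0.05 (SE) without C3a (edgeR adjusted p = 3.03e-06) and 0.83 ± 0.05 with it (adjusted p = 2.03e-06), and both calls held under all 21 alternative settings.

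The start regions of Slc25a20, of Slc25a34, which had the highest fitted fold change, and of Slc25a3, the most abundant member, are shown because these genes rose with palmitate in both comparisons. They are RefSeq windows on GRCm38.p6, from 250 bases before to 50 bases after the annotated start, written 5′ to 3′ on the gene's strand. They lie at chr9:108661886-108662185 (plus strand), chr4:141623785-141624084 (minus strand) and chr10:91123918-91124217 (minus strand). Capitals mark matches to the motifs named next.
Slc25a20: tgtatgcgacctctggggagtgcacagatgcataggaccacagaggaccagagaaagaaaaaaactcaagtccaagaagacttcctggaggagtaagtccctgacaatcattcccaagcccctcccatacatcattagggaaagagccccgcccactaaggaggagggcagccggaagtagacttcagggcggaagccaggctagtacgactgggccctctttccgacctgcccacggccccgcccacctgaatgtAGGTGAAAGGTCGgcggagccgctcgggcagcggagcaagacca
Slc25a34: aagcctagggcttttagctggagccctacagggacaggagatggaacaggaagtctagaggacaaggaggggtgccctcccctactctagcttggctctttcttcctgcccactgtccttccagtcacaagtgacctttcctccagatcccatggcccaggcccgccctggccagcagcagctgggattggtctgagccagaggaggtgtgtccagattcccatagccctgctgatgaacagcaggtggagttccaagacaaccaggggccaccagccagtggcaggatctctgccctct
Slc25a3: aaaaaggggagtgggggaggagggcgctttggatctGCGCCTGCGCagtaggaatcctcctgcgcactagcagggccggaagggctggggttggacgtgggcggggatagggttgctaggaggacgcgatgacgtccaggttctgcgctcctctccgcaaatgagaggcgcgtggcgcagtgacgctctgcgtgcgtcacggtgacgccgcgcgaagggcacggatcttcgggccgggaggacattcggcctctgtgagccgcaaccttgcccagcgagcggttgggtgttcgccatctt

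A search for 5 motifs on both strands covered the 45 windows that RefSeq gives for 35 of the 46 members. The DR1 element bound by PPAR receptors is a pair of AGGTCA half-sites in 1 direction with any 1 base between them, and up to 2 mismatches were allowed. It was present in 3.86% of all 32851 windows and in 3 windows of members, those of Slc25a20, Slc25a45 and Slc25a47. In Slc25a20 the match began at base 7 after the start and had 2 mismatches. The NRF1 site, GCGC and TGCGC with any 1 base between them, was in 4.6% of all windows and in those of Slc25a3 and Slc25a31. The cAMP response element TGACGTCA was in 1.79% of all windows and in those of Slc25a25 and Slc25a36. The amino acid response element (TGATG, any base, AA) and the ERR site (TCA followed by a half-site of DR1, which it can overlap) were in 3.97% and 0.423% of all windows and in 0 of the 45. Matches describe letters in these windows and are not evidence of binding.

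A pair of transcripts accounted for nearly all counts of Slc25a20. The protein-coding Slc25a20-201 had 11.5, 13.2 and 14.9 CPM in vehicle, 12.7, 13.4 and 15.2 in vehicle with C3a, 29.4, 29.9 and 30.3 in palmitate and 28.1, 31.7 and 31.9 in palmitate with C3a. Slc25a20-202, annotated as a retained intron, had 5.50 to 7.37 CPM without palmitate and 4.60 to 6.50 CPM with it. The coding transcript was separate between the 6 palmitate libraries and the others, while the retained-intron transcript overlapped. The share of the coding transcript in the gene's counts was 63.3% to 73.3% without palmitate and 80.9% to 87.3% with it, a usage difference of 1.46 on the log2 scale (limma diffSplice adjusted p = 1.81e-05, 6 libraries against 6). Tested alone, the coding transcript rose by 1.19 ± 0.07 (log2) without C3a (edgeR adjusted p = 3.11e-05) and by 1.16 ± 0.07 with it (adjusted p = 2.58e-05), more than the gene as a whole.

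**Figure D3:**
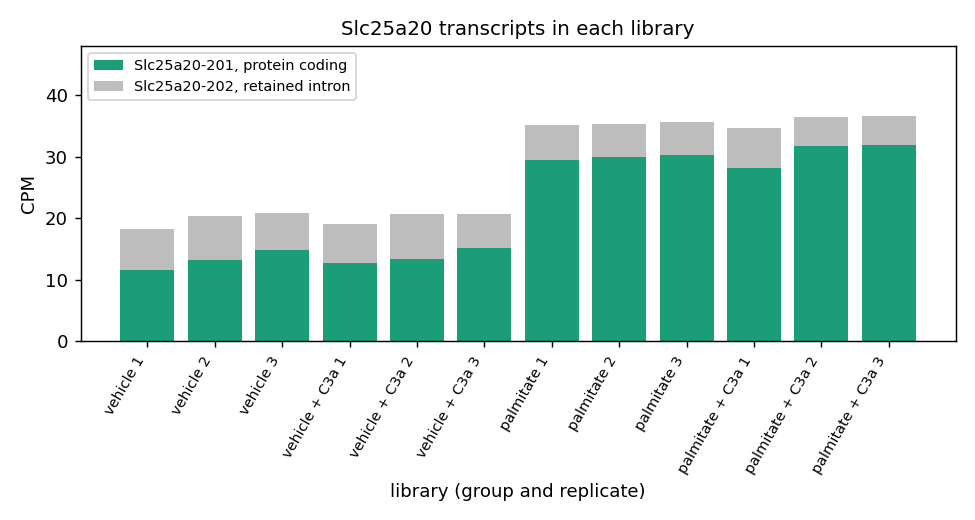
CPM of the 2 main Slc25a20 transcripts in each of the 12 libraries, stacked (green, the protein-coding transcript; grey, the retained-intron transcript). The coding transcript lies at 11.5 to 15.2 CPM without palmitate and at 28.1 to 31.9 CPM with it, and the other transcript at 4.60 to 7.37 CPM throughout.

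Transcript usage was tested for 118 transcripts of 26 members, and 5 transcripts of 3 genes passed, where 1.01% of the 34509 transcripts tested in all genes did. Beside the pair of Slc25a20 transcripts these were 2 of Slc25a39 and 1 of Slc25a36. Usage is measured against the other transcripts of the same gene, so calls within a gene are not independent of each other. The coding Slc25a39-201 took 86.9% to 98.6% of its gene without palmitate and 84.7% to 92.1% with it (limma diffSplice adjusted p = 0.00991). The retained-intron transcript Slc25a39-213 took 0% to 7.54% and 4.08% to 12.2% (adjusted p = 0.0219). Slc25a36-209, a processed transcript of a pyrimidine nucleotide carrier gene, took 0.586% to 0.996% and 1.33% to 2.42% (adjusted p = 0.0219). The Slc25a20 and Slc25a36 shares did not overlap between the libraries with and without palmitate, and the Slc25a39 shares did. The 5 calls became 3 without the batch term or without vehicle replicate 3, and 2 without vehicle replicate 2 or without palmitate with C3a replicate 1.

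Of the 4 genes for ATP synthesis, 3 rose without C3a and 2 with it, and none fell. Slc25a5 encodes the ADP/ATP carrier ANT2 (chromosome X, 36795651 to 36798807, plus strand). It had 196, 186 and 186 CPM in vehicle, 200, 181 and 190 in vehicle with C3a, 282, 237 and 254 in palmitate, and 269, 243 and 250 in palmitate with C3a. No palmitate library fell into the range of the others. Its log2 fold change was 0.44 ± 0.04 (edgeR adjusted p = 3.78e-05) and 0.42 ± 0.04 with C3a (adjusted p = 5.30e-05).

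Slc25a3, the phosphate carrier gene (chromosome 10, 91116574 to 91124059, minus strand), had 249, 273 and 284 CPM in vehicle, then 268, 282 and 301 CPM with C3a. In palmitate it had 314, 352 and 386 CPM, and in palmitate with C3a 308, 350 and 385 CPM. In every group replicate 1, the library of batch 1, was the lowest, and the palmitate libraries were above all others. Its log2 fold change was 0.38 ± 0.05 (edgeR adjusted p = 0.000436) and 0.29 ± 0.05 with C3a (adjusted p = 0.00227), the second call ending without the batch term. A retained-intron transcript, Slc25a3-204, took 13.1% to 21.7% of the gene's counts in batch 1 and 0.429% to 1.74% in batch 2, and its usage was not called with palmitate (limma diffSplice adjusted p = 0.575).

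Slc25a4, which encodes the other common ADP/ATP carrier ANT1, rose by 0.15 ± 0.05 (log2) without C3a (edgeR adjusted p = 0.0317). With C3a it stood at 0.12 ± 0.05 (edgeR adjusted p = 0.0654) and passed under a block for replicate number (adjusted p = 0.0286) and without palmitate replicate 2 (adjusted p = 0.0482). The first call ended under 9 of 21 alternative settings. Slc25a5 took 59.0% to 60.6% of the summed TPM of Slc25a5 and Slc25a4 without palmitate and 62.8% to 66.8% with it, which did not overlap. Such shares did overlap for Slc25a39 with Slc25a40, Slc25a28 with Slc25a37, Slc25a36 with Slc25a33 and Slc25a22 with Slc25a18. They did not for Slc25a23 with Slc25a24 or for the pairs given below. How often this holds for other pairs of genes was not tested. A copy of Slc25a5 that is not protein coding, Slc25a5-ps, had 78 counts in all, 0.0797% of those of Slc25a5. Slc25a31, the ADP/ATP carrier known from germ cells, had 85 counts in all and was not called.

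Of the ATP-Mg/phosphate carriers, which adjust the adenine nucleotide content of the matrix and most of which are regulated by calcium, 1 of 3 tested fell. Slc25a23 (chromosome 17, 57043711 to 57059863, minus strand) had 76.3, 73.8 and 80.2 CPM in vehicle, then 73.9, 82.4 and 74.1 CPM in vehicle with C3a. It had 51.5, 52.5 and 52.3 CPM in palmitate and 50.9, 54.6 and 58.1 CPM in palmitate with C3a. All 6 palmitate libraries were lower than all 6 others. Its fold change was, on the log2 scale, -0.56 ± 0.05 (edgeR adjusted p = 3.54e-05) and -0.49 ± 0.05 with C3a (adjusted p = 7.21e-05).

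Slc25a25, which had the highest TPM of that class averaged over the 12 libraries but less than Slc25a23 in each of the 6 libraries without palmitate, had 66.5, 62.3 and 62.7 CPM in vehicle, 62.3, 65.4 and 63.9 with C3a, 63.5, 80.2 and 74.6 in palmitate and 61.4, 74.9 and 71.1 in palmitate with C3a. The 2 palmitate libraries of batch 2 in each group were high and those of batch 1 lay within or just below the range of the others. It was not called, at 0.19 ± 0.07 (edgeR adjusted p = 0.0828) and 0.11 ± 0.07 with C3a (adjusted p = 0.291). The first value passed within batch 2 alone, at 0.31 (edgeR adjusted p = 0.0113), without vehicle replicate 1, at 0.28 (adjusted p = 0.014), and without palmitate replicate 1, at 0.26 (adjusted p = 0.035). Slc25a23 took 50.8% to 57.5% of the summed TPM of Slc25a23 and Slc25a25 without palmitate and 38.8% to 45.5% with it. Slc25a24 was at 0.16 ± 0.12 and 0.32 ± 0.12 and was not called (edgeR adjusted p = 0.383 and 0.0828), the second value passing without palmitate replicate 1 (adjusted p = 0.0427).

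Among the carriers of di- and tricarboxylates, 1 of 3 tested rose, the citrate carrier gene Slc25a1 (chromosome 16, 17925223 to 17928219, minus strand). Citrate leaves the matrix through it to feed fatty acid synthesis and the pyruvate-citrate cycle. It had 92.8, 121 and 115 CPM in vehicle, 97.2, 117 and 116 in vehicle with C3a, 119, 133 and 137 in palmitate and 111, 135 and 134 in palmitate with C3a. Replicate 1 was the lowest of each group, so that the pooled ranges overlapped while each palmitate library was above its same-numbered counterpart. The log2 fold change was 0.25 ± 0.04 (edgeR adjusted p = 0.00144) and 0.20 ± 0.04 with C3a (adjusted p = 0.00536), and both calls ended without the batch term. The dicarboxylate carrier gene Slc25a10 and the oxoglutarate-malate carrier gene Slc25a11 were not called, at 0.07 and 0.08 without C3a and -0.06 and 0.01 with it on the log2 scale.

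The aspartate and glutamate carriers include both isoforms that export aspartate in the malate-aspartate shuttle. Aralar, encoded by Slc25a12, had 84.9, 77.1 and 80.2 CPM in vehicle, 80.8, 81.9 and 81.4 in vehicle with C3a, 72.3, 72.9 and 75.1 in palmitate and 72.2, 71.7 and 75.0 in palmitate with C3a. The palmitate libraries were all lower than the others, by little. It passed at -0.14 ± 0.04 (edgeR adjusted p = 0.0426) and -0.16 ± 0.04 (adjusted p = 0.0207), but the calls ended under 19 and 9 of 21 alternative settings. The citrin gene Slc25a13 rose by 0.38 ± 0.12 without C3a (edgeR adjusted p = 0.0344, ended under 9 of 21 settings) and stood at 0.27 ± 0.12 with it (adjusted p = 0.114). The glutamate carrier gene Slc25a22 rose by 0.23 ± 0.05 without C3a (edgeR adjusted p = 0.00532, ended within batch 2 alone and with the most abundant transcript alone) and stood at 0.14 ± 0.05 with it (adjusted p = 0.0542). The second value passed with the replicate block (edgeR adjusted p = 0.0373), without vehicle with C3a replicate 3 (adjusted p = 0.025) and without palmitate with C3a replicate 2 (adjusted p = 0.0469). Slc25a12 took 92.3% to 94.0% of the summed TPM of Slc25a12 and Slc25a13 without palmitate and 90.1% to 92.2% with it.

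Of 4 tested carriers of other amino acids, 1 fell without C3a and 2 fell with it. The glycine carrier gene Slc25a38, whose protein supplies glycine for heme synthesis, had 12.9, 14 and 14.8 CPM in vehicle, 12.8, 12.8 and 14.6 in vehicle with C3a, 10.9, 10.4 and 11.7 in palmitate, and 10.3, 11 and 11.1 in palmitate with C3a. All palmitate libraries were below the others, and the log2 fold changes were -0.34 ± 0.08 (edgeR adjusted p = 0.00766) and -0.31 ± 0.08 (adjusted p = 0.0107). The calls ended within batch 2 alone and without vehicle replicate 3 or vehicle with C3a replicate 3, respectively. The basic amino acid carrier gene Slc25a29 was at -0.14 ± 0.09 (edgeR adjusted p = 0.291) and -0.30 ± 0.09 with C3a (adjusted p = 0.0314), a call that ended under 9 of 21 settings. The ornithine carrier gene Slc25a15 was not called, at 0.15 and 0.08 on the log2 scale.

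The most abundant of these per length was Slc25a44, a branched-chain amino acid carrier gene. It had 102, 83.4 and 92.0 CPM in vehicle, 99.1, 94.1 and 92.2 with C3a, 105, 88.0 and 86.1 in palmitate and 103, 81.9 and 89.6 in palmitate with C3a. Replicate 1 was the highest library of each group, and the 4 groups overlapped. It was not called, at 0.01 and -0.06 on the log2 scale (edgeR adjusted p = 0.934 and 0.455).

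Among the carriers of coenzymes, 3 fell in each comparison. Slc25a42, which brings coenzyme A into the matrix (chromosome 8, 70184340 to 70212305, minus strand), had 40.6, 42.5 and 43.5 CPM in vehicle, then 40.6, 42.2 and 44.2 CPM in vehicle with C3a. It had 28.2, 31.8 and 30.2 CPM in palmitate and 29.6, 29.7 and 33.2 CPM in palmitate with C3a. The groups with and without palmitate were well apart. On the log2 scale it changed by -0.49 ± 0.05 (edgeR adjusted p = 6.14e-05) and -0.46 ± 0.05 with C3a (adjusted p = 8.06e-05). Slc25a16, also described as a coenzyme A carrier, was not called, at 0.10 and -0.02. Its share of the summed TPM of both genes was 41.9% to 45.3% without palmitate and 48.1% to 54.7% with it.

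The NAD carrier gene Slc25a51 (chromosome 4, 45395923 to 45408766, minus strand) had 115, 136 and 142 CPM in vehicle, 120, 139 and 132 in vehicle with C3a, 98.3, 112 and 112 in palmitate and 102, 112 and 114 in palmitate with C3a. The palmitate libraries were the 6 lowest. It fell by 0.28 ± 0.04 (log2) without C3a (edgeR adjusted p = 0.000555) and by 0.25 ± 0.04 with C3a (adjusted p = 0.000976), calls that ended without the batch term. They also ended for its most abundant transcript alone. The coding transcripts Slc25a51-201 and Slc25a51-202 took from 0.689% to 95.4% and from 0.179% to 93.2% of the gene's counts in different libraries.

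The peroxisomal carrier gene Slc25a17 fell by 0.18 ± 0.05 (log2) without C3a (edgeR adjusted p = 0.0287, ended under 7 of 21 settings) and by 0.26 ± 0.05 with C3a (adjusted p = 0.00338). The S-adenosylmethionine carrier gene Slc25a26 and the folate and FAD carrier gene Slc25a32 were not called, at 0.18 and 0.13 without C3a and -0.07 and 0.00 with it.

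Both glutathione carrier genes rose in both comparisons. Slc25a39 (chromosome 11, 102402985 to 102407946, minus strand) had 197, 201 and 220 CPM in vehicle, 200, 214 and 224 in vehicle with C3a, 236, 247 and 258 in palmitate and 232, 246 and 255 in palmitate with C3a. Slc25a40 (chromosome 5, 8422850 to 8454797, plus strand), at a lower level per length, had 13.1, 13.9 and 14.5 CPM in vehicle, 10.1, 12.2 and 13.0 in vehicle with C3a, 14.8, 21.6 and 21.6 in palmitate and 14.8, 20.5 and 19.2 in palmitate with C3a. For both genes the palmitate libraries were the 6 highest, and for Slc25a40 those of batch 1 were just above the others. The log2 fold change of Slc25a39 was 0.26 ± 0.04 (edgeR adjusted p = 0.00141) and 0.20 ± 0.04 with C3a (adjusted p = 0.00591). That of Slc25a40 was 0.47 ± 0.08 (edgeR adjusted p = 0.00151) and 0.62 ± 0.08 with C3a (adjusted p = 0.000254). Without the batch term the calls of Slc25a40 without C3a and of Slc25a39 with C3a ended, the first also with the most abundant transcript alone and the second within batch 2 alone.

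Of the mitoferrins, the iron importers of the inner membrane, Slc25a37 (mitoferrin 1) rose in both comparisons. It had 10.3, 12.6 and 11.3 CPM in vehicle, 10.8, 11.6 and 11.9 in vehicle with C3a, 14.2, 15.7 and 15.3 in palmitate and 14.5, 14.7 and 17.9 in palmitate with C3a. Libraries with and without palmitate did not overlap. On the log2 scale it changed by 0.40 ± 0.08 (edgeR adjusted p = 0.00349) and 0.45 ± 0.08 with C3a (adjusted p = 0.00149), the first call ending within batch 2 alone. Slc25a28 (mitoferrin 2), which is the more abundant per length, had 20.2, 23.1 and 24.9 CPM in vehicle, 22.6, 25.0 and 24.9 with C3a, 26.8, 22.6 and 25.7 in palmitate and 23.0, 22.8 and 27.7 in palmitate with C3a. Its groups overlapped, and it was not called, at 0.14 and 0.02 on the log2 scale (edgeR adjusted p = 0.328 and 0.905).

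Neither pyrimidine nucleotide carrier nor any of the 3 UCP-like carriers was called. Slc25a36 had 106, 104 and 108 CPM in vehicle, 99.3, 106 and 101 with C3a, 99.0, 102 and 93.2 in palmitate and 102, 93.2 and 97.1 in palmitate with C3a. Both palmitate groups lay below vehicle alone, and vehicle with C3a overlapped with every other group. Slc25a36 was at -0.11 ± 0.05 (edgeR adjusted p = 0.125) and -0.07 with C3a (adjusted p = 0.351). Slc25a33 was at 0.19 and 0.38 (edgeR adjusted p = 0.332 and 0.0529), the second of which passed with the replicate block (adjusted p = 0.0362). Slc25a14, the most abundant UCP-like gene per length, had 16.3, 14.9 and 16.0 CPM in vehicle, 14.5, 12.7 and 15.5 with C3a, 14.3, 13.0 and 14.8 in palmitate and 12.8, 12.6 and 14.3 in palmitate with C3a. Its libraries of vehicle with C3a overlapped with every other group, while those of both palmitate groups lay below those of vehicle alone. Its log2 fold changes were -0.17 and -0.10 (edgeR adjusted p = 0.207 and 0.483). Slc25a27 and Slc25a30 were at 0.14 and -0.02 without C3a and -0.01 and 0.16 with it.

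Of the 7 tested members with no settled substrate, 2 rose and 2 fell without C3a, and 1 rose and 2 fell with it. Slc25a53 (chromosome X, 136981116 to 137038302, minus strand) had 39.1, 34.8 and 36.5 CPM in vehicle, 37.8, 36.3 and 35.9 in vehicle with C3a, 27.1, 28.7 and 26.0 in palmitate and 26.8, 24.5 and 28.0 in palmitate with C3a. The palmitate libraries were the 6 lowest. It fell by 0.43 ± 0.06 (log2) without C3a (edgeR adjusted p = 0.000499) and by 0.47 ± 0.06 with C3a (adjusted p = 0.000243).

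Slc25a35 had 15.4, 12.2 and 11.7 CPM in vehicle, 15.6, 13.0 and 12.4 in vehicle with C3a, 11.9, 10.3 and 10.7 in palmitate and 11, 9.25 and 9.39 in palmitate with C3a. Replicate 1 was the highest of each group, and only the palmitate libraries without C3a overlapped with those of vehicle. It was at -0.25 ± 0.07 (edgeR adjusted p = 0.0157, ended under 7 of 21 settings) and -0.47 ± 0.07 with C3a (adjusted p = 0.000350, ended with the most abundant transcript alone). Slc25a46, which encodes an outer membrane protein of mitochondrial dynamics, had 67.2, 71.1 and 73.4 CPM in vehicle, 67.8, 77.3 and 74.8 with C3a, 73.2, 80.8 and 80.2 in palmitate and 68.6, 79.7 and 80.4 in palmitate with C3a. Its ranges overlapped; it rose by 0.15 ± 0.04 without C3a (edgeR adjusted p = 0.0189, ended under 5 of 21 settings) and stood at 0.06 with it (adjusted p = 0.341). Slc25a43, Slc25a45 and Slc25a47 were near 1 CPM and were not called.

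Slc25a34, which was singled out after its values were seen, lies at the low end of the range. It had 3, 1 and 0 counts in vehicle, 1, 3 and 3 in vehicle with C3a, 17, 13 and 17 in palmitate and 22, 19 and 8 in palmitate with C3a (chromosome 4, 141618824 to 141623821, minus strand). Every palmitate library had more counts than every other library. The summed 47 against 4 counts gave a CPM ratio of 12.7, with an exact 95% interval of 4.66 to 48.7, and the 49 against 7 counts with C3a gave 6.97 (3.14 to 18.2). These intervals cover counting error only. It passed the filter on low counts only through the palmitate groups, where it is high, so its test is no independent support for the difference. The fitted log2 changes were 3.55 ± 0.75 (edgeR adjusted p = 0.00485) and 2.71 ± 0.69 (adjusted p = 0.0123). The second call ended without the batch term, within batch 2 alone, without vehicle with C3a replicate 1 and without palmitate with C3a replicate 2.

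**Figure D4:**
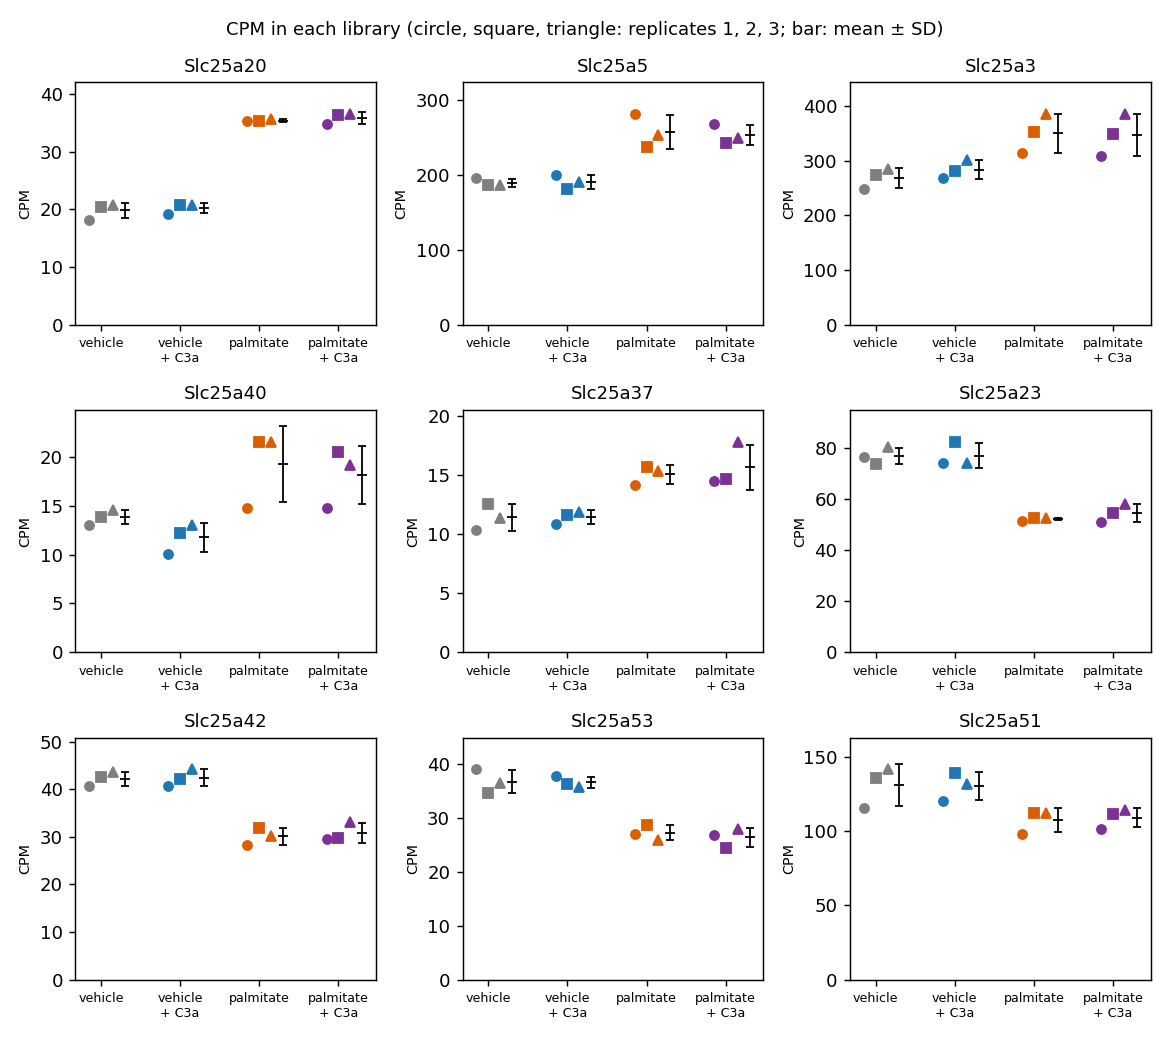
CPM of 9 SLC25 genes in each library by group (circle, square and triangle for replicates 1, 2 and 3) with the mean ± SD of 3 libraries; every axis starts at 0. The palmitate libraries of Slc25a20, Slc25a5, Slc25a3, Slc25a40 and Slc25a37 lie above, and those of Slc25a23, Slc25a42, Slc25a53 and Slc25a51 below, all libraries without palmitate.

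C3a was compared with its absence within palmitate and within vehicle, as an interaction with palmitate, and as an average of both. No member was called in any of the 4 comparisons (edgeR quasi-likelihood test, 41 tested), where 0%, 0%, 0% and 0.00633% of all genes were called. DESeq2 and limma voom also called none, and 1 member had an unadjusted p under 0.05 in each comparison, beside 430, 347, 251 and 555 of all genes. For Slc25a20 the log2 difference with C3a was 0.02 within palmitate (95% interval -0.09 to 0.12) and 0.03 within vehicle (-0.08 to 0.14). For Slc25a5 it was -0.02 (-0.11 to 0.08) and 0.01 (-0.09 to 0.10), and for Slc25a23 0.07 (-0.05 to 0.19) and 0.00 (-0.12 to 0.12). The 6 intervals of these 3 genes lie between -0.12 and 0.19.

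The members with the smallest unadjusted p in these comparisons did not pass the threshold. Within palmitate they were Slc25a35 at -0.15 ± 0.07 (log2, 95% interval -0.30 to -0.01), Slc25a31 at -1.18 ± 0.56 and Slc25a26 at -0.25 ± 0.13. Slc25a31 had 0.395, 0.162 and 0.186 CPM in palmitate and 0.185, 0.0862 and 0.0594 CPM in palmitate with C3a, and Slc25a26 had 5.14, 4.88 and 5.17 CPM and 4.69, 4.08 and 4.08 CPM. Those of Slc25a26 did not overlap, and those of Slc25a31 did. The members named here were picked by p from the same values, so a gap between groups is no support for a difference. Within vehicle they were Slc25a40 at -0.24 ± 0.08 (-0.42 to -0.05), Slc25a10 at 0.21 ± 0.10 and Slc25a14 at -0.15 ± 0.09. Slc25a10 had 10.1, 10.4 and 9.92 CPM in vehicle, then 11.5, 10.3 and 13.3 CPM in vehicle with C3a, which overlapped. The Slc25a40 values given above were barely apart, with 13.07 CPM in the lowest vehicle library and 13.02 CPM in the highest with C3a. In the interaction they included Slc25a35 at -0.22 ± 0.09 (-0.42 to -0.02) and Slc25a16 at -0.12 ± 0.08. For the average over both backgrounds they were Slc25a40 at -0.16 ± 0.06 (-0.29 to -0.03), Slc25a31 at -0.79 ± 0.37 and Slc25a10 at 0.14 ± 0.07.

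Genes that work with these carriers are given by list, as the number that rose and fell of those tested without C3a and then with it. Beside these counts, 13.4% of all genes tested rose and 12% fell, then 13.8% and 13.1%. Of 7 carnitine shuttle enzymes around Slc25a20, 2 rose and 1 fell in both. Cpt1a, which makes the acylcarnitines on the outer membrane, was at 1.86 ± 0.11 and 1.86 ± 0.11, and the peroxisomal Crot at -0.40 ± 0.04 and -0.36 ± 0.04 on the log2 scale. Of 7 proteins of the TIM22 pathway that inserts carriers into the inner membrane, 4 rose and 0 fell, then 3 and 0, with the chaperone gene Timm10 at 0.49 ± 0.10 and 0.44 ± 0.10 and the receptor gene Tomm70a at 0.17 ± 0.05 and 0.21 ± 0.05. Of 10 pyruvate and serine carriers and outer membrane porins, 3 rose and 0 fell in both, with Vdac3 at 0.41 ± 0.05 and 0.38 ± 0.05 and Vdac2 at 0.26 ± 0.06 and 0.21 ± 0.06. Of 3 tested family members with other names, 0 rose and 1 fell in both, Mtch1 at -0.29 ± 0.05 and -0.36 ± 0.05, while Mtch2 was not called at 0.12 ± 0.04 and 0.07 ± 0.04.

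Of 7 enzymes of the malate-aspartate and glycerol phosphate shuttles, 4 rose and 1 fell, then 3 and 1. The cytosolic transaminase gene Got1 was at 0.86 ± 0.07 and 0.81 ± 0.07 and the glycerol phosphate dehydrogenase gene Gpd2 at -0.60 ± 0.09 and -0.67 ± 0.09. Of 12 enzymes of the citrate, malate and pyruvate cycles, 4 rose and 2 fell, then 3 and 3, with the isocitrate dehydrogenase gene Idh3a at 0.36 ± 0.05 and 0.21 ± 0.05 and the malic enzyme gene Me1 at 0.44 ± 0.08 and 0.42 ± 0.08. Of 8 genes of mitochondrial calcium transport, 2 rose and 1 fell in both. Mcu was at 0.65 ± 0.08 and 0.61 ± 0.08 and Mcub at 0.51 ± 0.16 and 0.83 ± 0.16.

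Beside the glutathione, iron and coenzyme carriers, 4 of 8 genes of glutathione synthesis and use rose and 0 fell in both, with Gpx4 at 0.28 ± 0.05 and 0.28 ± 0.05 and Gclm at 0.26 ± 0.05 and 0.21 ± 0.05. Of 8 mitochondrial folate enzymes, 4 rose and 0 fell in both, with Mthfd2 at 0.60 ± 0.10 and 0.60 ± 0.10 and Mthfd1l at 0.50 ± 0.09 and 0.48 ± 0.09. Of 11 tested genes of heme and iron-sulfur synthesis, 2 rose and 2 fell, then 2 and 4, with the transporter gene Abcb10 at -0.36 ± 0.05 and -0.48 ± 0.05 and the porphyrin enzyme gene Cpox at 0.31 ± 0.05 and 0.27 ± 0.05. List medians without C3a were 0.31 for the folate enzymes, 0.22 for glutathione, 0.20 for the shuttle enzymes and 0.18 for the TIM22 pathway. Medians were 0.08 for calcium transport, 0.05 for porins and pyruvate carriers and 0.03 for the citrate, malate and pyruvate enzymes. They were -0.06 for the carnitine enzymes, -0.06 for the members with other names and -0.10 for heme and iron-sulfur synthesis, beside -0.02 over all genes tested. C3a called no gene of these lists within palmitate or within vehicle.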

How the data were processed

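The authors deposited estimated counts per transcript as whole numbers, not normalized. Per the submitters' processing notes, the tools were kallisto and DESeq2 and the build GRCm38, with no role or version. For the transcriptome release and the strand setting the sources used here give nothing, so overlapping, antisense and near-identical genes are uncertain. The libraries were made with a strand-marking messenger RNA kit, per the labels' protocols. Of 71524 transcripts, 69942 matched GENCODE M21 by identifier; the 1582 others held 0.581% to 0.677% of counts and were left out. Counts were summed per gene, and no rounding was needed. TPM were computed from annotated transcript lengths.

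Genes passing edgeR's filterByExpr (15794) were scaled by TMM (0.967 to 1.045) and fitted over all 12 libraries with group and sequencing batch (edgeR 4.0.16, R 4.3.3, robust quasi-likelihood, 7 residual degrees of freedom, two-sided). Adjustment was by Benjamini-Hochberg over all genes within a comparison. SE was obtained by dividing the size of the log2 fold change by the root of F. Transcript usage was tested with limma 3.58.1 (voom and diffSplice) over 34509 transcripts. DESeq2 1.42.0, limma voom, other size factors, no count filter, no batch term, a replicate block, batch 2 alone, only the groups compared, the most abundant transcript alone and leaving out each library were alternatives. The fits were tested on simulated data. Promoter windows were taken from RefSeq (GRCm38.p6).

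Same-numbered libraries deviated from their group means together, with a correlation of 0.395 or more over 18 pairs, which includes the difference between batches. Within batch 2 the correlation was 0.115 on average and 0.0799 or more over 12 pairs. Each group has 2 libraries there, so the pairs of number 3 repeat those of number 2. Number 1 marks batch 1 in the labels, and the column names of numbers 2 and 3 carry tags shared by the 4 groups. On these grounds the numbers were taken to pair the libraries. No library duplicated another: chi-squared over degrees of freedom was at least 7.72 in the 66 pairs.

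Values per library are given for members called in both palmitate comparisons with at least 5 CPM (at most 14, by fold change), the most abundant member of each class, Slc25a20, and the 3 members with the smallest p in each C3a comparison; from other lists, the 2 genes with the smallest p. Results for all 12 cell marker lists are given. The members, lists and rules were chosen with earlier results of these data known. The values of 1 member are not reported here; it stays in the fits and in the counts over the family.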

Additional observations from a re-analysis of the deposited data

How the results depend on the processing

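The counts of called SLC25 genes moved most with the sequencing batch. For palmitate against vehicle, 13 rose and 8 fell; without the batch term 7 rose and 4 fell, within batch 2 alone 8 rose and 4 fell, and with the most abundant transcript of each gene alone 5 fell. For the comparison with C3a in both groups, 9 rose and 9 fell; 5 rose without the batch term and 5 fell with the most abundant transcript alone. Leaving out 1 library gave 9 to 13 higher and 5 to 8 lower in the first comparison (5 without vehicle replicate 1 or vehicle replicate 3), and 8 to 10 higher and 6 to 9 lower in the second (6 without vehicle with C3a replicate 3). The 5 called transcripts became 3 without the batch term and 2 to 6 on leaving out 1 library. With the replicate block, 13 rose and 8 fell without C3a and 12 rose and 9 fell with it; the block ended no gene call and added Slc25a4, Slc25a22 and Slc25a33 with C3a, and it changed no other gene call. No SLC25 gene was called for C3a under any alternative. Of 39 calls of named members, 17 held under all alternatives tried and none turned direction. The 17 include the call of Slc25a34 without C3a, a gene that passed the filter on low counts only through the palmitate groups. Slc25a25 passed without C3a within batch 2 alone (0.3144) and without replicate 1 of vehicle or of palmitate. The uncalled Slc25a44 log2 fold change, palmitate against vehicle, turned to -0.0058 within batch 2 alone and to -0.1347 with the most abundant transcript alone, and ranged from -0.0296 (without vehicle replicate 2) to 0.0562 on leaving out 1 library, with -0.0138 without palmitate replicate 1. The uncalled Slc25a28 log2 fold change, palmitate with C3a against vehicle with C3a, ranged from -0.0686 (without palmitate with C3a replicate 3) to 0.086 on leaving out 1 library, with -0.0008 without vehicle with C3a replicate 1. The cause of these shifts was not tested; fewer libraries or counts enter when a batch, a library or transcripts are left out. Low counts, as for Slc25a34, limit the precision of the rarest members.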

Other observations

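Calls between palmitate and vehicle in the other cell marker lists are given as the number that rose and fell of those tested. The values without C3a come first, then those with it. Over all genes tested, 13.4% rose and 12% fell without C3a, and 13.8% rose and 13.1% fell with it. Alpha cell markers had 1 higher and 2 lower of 7, then 1 and 3. Delta cell markers had 0 and 0 of 4, then 0 and 1, and PP cell markers 1 and 0 of 2, then 0 and 0. None of 9 acinar markers passed in either comparison, and of 6 duct markers 2 and then 1 rose. Fibroblast and pericyte markers had 0 higher and 2 lower of 8, then 0 and 1, macrophage markers 1 and 1 of 8 in both, lymphocyte markers 0 and 1 of 2 in both, Schwann cell markers 0 and 1 of 5 in both, and erythroid markers 0 and 0 of 2 in both. The summed fibroblast and pericyte markers ran from 187 to 1494 CPM within palmitate with C3a. These lists are counted with edgeR at an adjusted p under 0.05.

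For some members the split of counts between transcripts varied between libraries of 1 group. Slc25a13-201 and Slc25a13-203, both protein coding, each took from 0% to 100% of the gene's counts in libraries without palmitate. Their usage was not called with palmitate (limma diffSplice adjusted p = 0.999).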
